A study of Mus musculus with 14 samples.

Results

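Kdm5c, Kdm6a, Eif2s3x and Ddx3x were followed through the first days of X inactivation in differentiating female mouse ES cells. These genes are known to be expressed from both X chromosomes in many mouse tissues, and they were chosen by name for that property. All 4 had SNPs between the parental strains in their exons and all 4 had enough reads to be tested, out of 355 X-linked genes with such SNPs and 247 genes tested. They hold 23 of the 2239 SNPs in the table. The cells were 1 F1 line of Setdb1+/+ Xist∆A/+ 129/CAST female ES cells, derived from E3.5 embryos of 129 (in the labels 129/C57) dams and CAST sires. Every group carried the Xist∆A allele on its 129 X chromosome. That chromosome cannot be chosen for silencing, so inactivation falls on the CAST X chromosome. RNA was taken from untransduced cells at day 0 and, after 3 and 5 days of differentiation (day 3 and day 5), from cells transduced with a retrovirus carrying the non-silencing hairpin Nons or 1 of 2 hairpins against Setdb1, shSetdb1.4 and shSetdb1.6. Each of the 7 conditions had 2 replicate libraries, 14 in all. The day 0 cells had seen neither virus nor puromycin, so differentiation and transduction cannot be told apart in the comparisons with day 0 made here. The study also notes that XO cells were present in this line, and their share was not measured here.

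X inactivation silences most genes of 1 X chromosome in each female cell, and the long RNA Xist starts it. Escape genes are the exceptions, which keep some expression from the silenced copy. Kdm5c and Kdm6a encode histone demethylases, the first acting on methylated H3K4 and the second on methylated H3K27. Eif2s3x encodes the gamma subunit of the translation initiation factor eIF2, which brings the initiator tRNA to the ribosome. Ddx3x encodes a DEAD-box RNA helicase that takes part in translation. Each of them has a related copy on the Y chromosome, which these female cells lack. Setdb1 is a methyltransferase for H3K9, and H3K9 methylation is a mark of silent chromatin.

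The alleles can be told apart only where a read crosses a SNP, so the SNPs decide which stretch of each RNA was measured. Kdm5c (ENSMUSG00000025332.14, chrX:152233020-152274535, mm10, plus strand) has 12 SNPs from the first to the last exon. Kdm6a (ENSMUSG00000037369.17, chrX:18162575-18279936, plus strand) has 7 SNPs, 5 in coding exons and 2 in the 3′ UTR. Ddx3x (ENSMUSG00000000787.12, chrX:13280970-13294052, plus strand) has 3, of which 1 lies in the 5′ UTR and 2 in coding exon 16. Eif2s3x (ENSMUSG00000035150.15, chrX:94188707-94212862, minus strand) was read at 1 SNP in its 3′ UTR. The following windows of 29 bases show the Kdm5c SNPs with the lowest and the highest CAST share, the deepest SNP of Kdm6a, and every SNP of Eif2s3x and Ddx3x. They are the reference transcript 5′ to 3′ from the GENCODE annotation of mm10, and the capital marks the SNP at position 15, counted from 1 at the 5′ end.
Kdm5c, chrX:152246360-152246388, plus strand, coding exon 7, C15T in CAST: cctttgcctgaaatCccgaaaggtgtctg
Kdm5c, chrX:152233505-152233533, plus strand, 5′ UTR in exon 1, A15G in CAST: cgtccttaagggcgAcctgagccctcccg
Kdm6a, chrX:18279008-18279036, plus strand, 3′ UTR in exon 29, T15C in CAST: ctttcagaattttaTtcgggggggaaaat
Eif2s3x, chrX:94190088-94190116, minus strand, 3′ UTR in exon 12, G15T in CAST: tgacccaccactgtGgatccacagactca
Ddx3x, chrX:13281049-13281077, plus strand, 5′ UTR in exon 1, C15T in CAST: ctttgcggtagaggCagcctttgctcagc
Ddx3x, chrX:13291185-13291213, plus strand, coding exon 16, C15T in CAST: ggtgccagagactaCcgacagagtagcgg
Ddx3x, chrX:13291272-13291300, plus strand, coding exon 16, T15C in CAST: ggccatggcggcagTcgaggatttggtgg

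The libraries held between 32972 and 101511 reads over all X-linked SNPs. Within a library Kdm5c had 446 to 1143 of these reads, Ddx3x 315 to 1059, Eif2s3x 130 to 531 and Kdm6a 58 to 357. The 95% Wilson interval of a CAST share was therefore between 5.8 and 9.2 percentage points wide for Kdm5c and between 10.2 and 23.2 for Kdm6a. Such intervals cover counting error only, since the reads carry no molecular identifiers and several may stem from 1 molecule. The autosomal markers of ES cells, Setdb1 and Xist were not analysed here, so neither the cell identity nor the knockdown was checked.

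Both alleles of the 4 genes were read at close to equal levels in most libraries. Of 56 values (4 genes in 14 libraries), 45 had an interval that holds a share of 50%, and 2 were below 40%, both of Kdm6a at day 3. The share of all tested genes with such intervals was not counted, so near-equality is not shown to be particular to these 4. The median tested gene was also near equal alleles before day 5. Its log2 ratio, CAST over the other allele, was -0.14 and -0.05 at day 0 and -0.06 to 0.0 at day 3. At day 5 it ranged from -0.45 to 0.19 between libraries. Kdm5c had CAST shares of 46.1% to 55.3% (median 50.9%). Ddx3x had 43.4% to 56.5% (median 51.2%) and Eif2s3x 41.6% to 55.5% (median 49.1%). Kdm6a, the gene with the fewest reads, had the widest range, from 31.0% to 56.3% (median 49.6%).

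**Figure D1:**
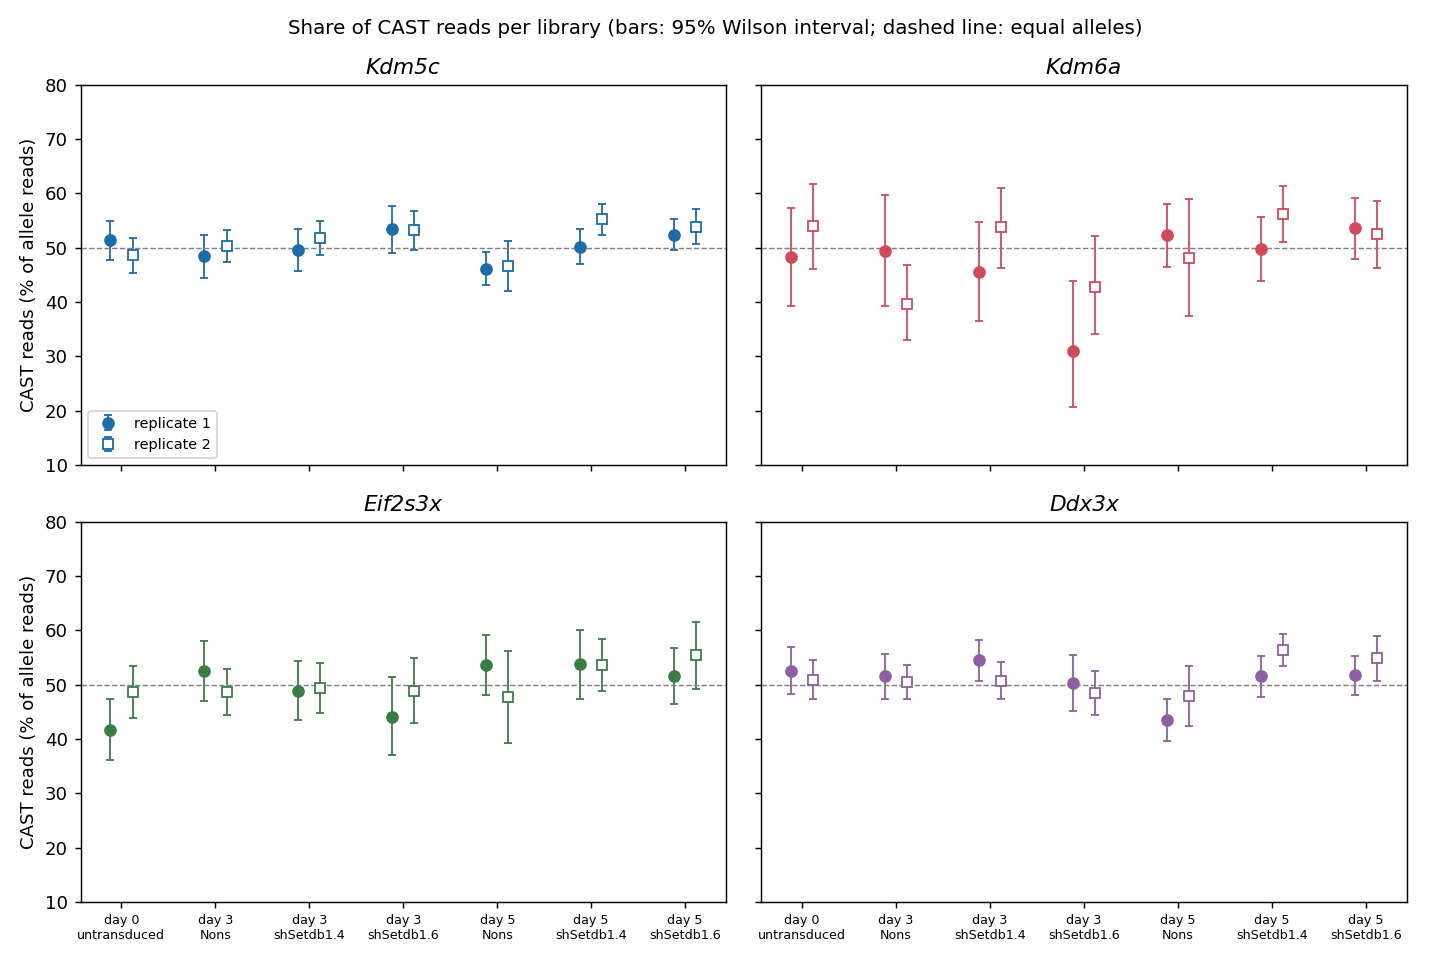
CAST reads as a percentage of the CAST and 129 reads of each gene (y axis) in the 14 libraries, by condition (x axis), with replicate 1 as filled circles and replicate 2 as open squares; bars are 95% Wilson intervals and the dashed line marks equal alleles. The shares scatter around 50%, and the lowest, 31.0%, is Kdm6a in the day 3 shSetdb1.6 library of replicate 1.

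In undifferentiated cells the CAST share was 51.4% and 48.6% for Kdm5c in replicates 1 and 2. It was 52.6% and 50.9% for Ddx3x. It was 48.2% and 54.0% for Kdm6a, and 41.6% and 48.6% for Eif2s3x. The replicates of Kdm5c and Kdm6a thus lay on either side of 50%, those of Ddx3x above it and those of Eif2s3x below it. Against a ratio of 1, the fitted log2 CAST/129 ratio ranged from -0.27 in Eif2s3x to 0.10 in Ddx3x, beside a median of -0.08 over all 247 genes tested. Both ends rested on single libraries, at -0.073 without replicate 1 and -0.49 without replicate 2 in Eif2s3x, and at 0.025 and 0.18 in Ddx3x. By the quasi-likelihood test of edgeR, with p-values adjusted over the 247 genes after Benjamini and Hochberg, 0 of the 4 differed from equal alleles (adjusted p from 0.269 to 0.994). None had an unadjusted p under 0.05, and DESeq2 called 0 as well. Of all genes tested 55 (22.3%) were called at day 0, 20 with more CAST and 35 with more 129 reads.

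Differentiation under Nons did not move the allele ratio of any of the 4 genes past the threshold, while the X chromosome as a whole shifted towards the 129 allele by day 5. From day 0 to day 3 the change of the log2 ratio was between -0.47 (Kdm6a) and 0.29 in the 4 genes, with a median of 0.04 over all genes. The lowest change became -0.055 without replicate 2 of day 3 Nons and -0.79 without replicate 1. The highest became 0.10 without replicate 1 of day 0, 0.14 without replicate 1 of day 3 Nons and 0.52 without replicate 2 of day 0. In that comparison edgeR and DESeq2 called 0 of 247 genes (0.0%), and 0 of the 4 had an unadjusted p under 0.05. By day 5 the Nons libraries of Kdm5c held 46.1% and 46.6% CAST reads, compared with 48.4% and 50.4% at day 3. Those of Ddx3x held 43.4% and 47.9%, compared with 51.6% and 50.5%. In both genes the day 5 values lay below both day 3 values. The share of all genes with this separation was not counted, and 186 of 247 (75.3%) had a negative fitted change. Kdm6a held 52.3% and 48.1% at day 5 after 49.4% and 39.7% at day 3, and Eif2s3x 53.7% and 47.7% after 52.5% and 48.6%. In Kdm6a and Eif2s3x the ranges of the days overlapped.

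The fitted change from day 3 to day 5 was -0.32 (SE 0.20) on the log2 ratio scale in Ddx3x and -0.17 (SE 0.19) in Kdm5c. It was 0.07 (SE 0.25) in Eif2s3x and 0.48 (SE 0.32) in Kdm6a. By edgeR's quasi-likelihood test 0 of the 4 passed, with adjusted p between 0.31 and 0.856. None had an unadjusted p under 0.05 and DESeq2 called 0 of them. The median change of all genes was -0.33, and 25 of 247 (10.1%) were called, 24 of them downwards. The value of Ddx3x was close to that median, and 95.9% of the other genes had a smaller value than Kdm6a. That of Ddx3x became -0.18 without replicate 1 of day 5 Nons. The value of Kdm6a rested on single libraries, at 0.015 without replicate 2 of day 3 Nons, 0.82 without its replicate 1 and 0.20 without replicate 1 of day 5 Nons. Relative to the median log2 ratio of each library, and with all libraries, the change of Kdm6a was 0.84, with an adjusted p of 0.0668 by edgeR. Between day 0 and day 5 the changes were -0.36 (SE 0.20) in Ddx3x, -0.20 (SE 0.19) in Kdm5c, 0.01 (SE 0.32) in Kdm6a and 0.36 (SE 0.25) in Eif2s3x, beside a median of -0.26. That of Eif2s3x became 0.086 without replicate 1 of day 5 Nons, 0.15 without replicate 1 of day 0, 0.58 without replicate 2 of day 0 and 0.54 without replicate 2 of day 5 Nons. That of Kdm5c became -0.068 without replicate 1 of day 0 and -0.34 without replicate 2, and that of Ddx3x -0.22 without replicate 1 of day 5 Nons. Again 0 of the 4 were called by edgeR's quasi-likelihood test or by DESeq2, with 0 unadjusted p under 0.05, and 28 of 247 genes (11.3%) were.

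Because the whole chromosome shifted, the ratios were also compared relative to the median log2 ratio of each library, which was -0.14 and -0.05 at day 0 and -0.45 and -0.24 in the day 5 Nons libraries. On this centred scale Eif2s3x stood 0.62 (SE 0.22) higher at day 5 than at day 0, with an adjusted p of 0.0787 by edgeR's quasi-likelihood test, and 91.9% of the other genes had a smaller value. The call was missed, and it was gained at an adjusted p of 0.0288 (edgeR) when only SNPs at least 100 bp apart were summed, which leaves the single SNP of Eif2s3x as it was and lowers the number of genes tested to 238. It was also gained without replicate 2 of day 0 (0.87, adjusted p 0.0295, edgeR) and without replicate 2 of day 5 Nons (0.83, adjusted p 0.0485, edgeR), while it was missed by more without replicate 1 of day 0 (0.41, adjusted p 0.372, edgeR) or of day 5 Nons (0.28, adjusted p 0.729, edgeR). A single library thus decides it. The centred changes of the other 3 genes were 0.06 (Kdm5c), 0.27 (Kdm6a) and -0.12 (Ddx3x), with adjusted p of 0.668 or more by the same edgeR test. That of Ddx3x became -0.016 without replicate 1 of day 5 Nons and -0.19 without replicate 2. Over all genes 22 of 247 (8.91%) were called on the centred scale.

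Knockdown of Setdb1 was compared with Nons at each day to ask whether the CAST copies of these genes respond. At day 5 all 4 genes had a higher fitted CAST/129 ratio in the 4 knockdown libraries than in the 2 Nons libraries, but none passed the threshold, and the sign held without each library in turn only in Kdm5c and Ddx3x. Ddx3x held 51.5% and 56.5% CAST reads with shSetdb1.4, while shSetdb1.6 gave 51.7% and 54.9%, all above the 43.4% and 47.9% of Nons. Its log2 ratio averaged -0.25 ± 0.19 (SD, n = 2) in Nons, 0.23 ± 0.20 with shSetdb1.4 and 0.19 ± 0.13 with shSetdb1.6. The fitted difference in Ddx3x was 0.48 (SE 0.18, 95% interval 0.13 to 0.83, unadjusted p 0.0066, adjusted p 0.0812, edgeR quasi-likelihood test). Kdm5c held 50.2% and 55.3% with shSetdb1.4, while shSetdb1.6 gave 52.4% and 53.9%, also all above the 46.1% and 46.6% of Nons. Its fitted difference was 0.38 (SE 0.16, 95% interval 0.06 to 0.70, unadjusted p 0.0198, adjusted p 0.135, edgeR quasi-likelihood test). The share of all genes with such separated libraries was not counted, and 206 of 247 genes (83.4%) had a positive difference.

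Kdm6a and Eif2s3x differed less from Nons at day 5. Kdm6a held 49.8% and 56.3% CAST reads with shSetdb1.4, while shSetdb1.6 gave 53.6% and 52.5%. Of these, the 49.8% of shSetdb1.4 lay within the range of Nons, 52.3% and 48.1%, and the other 3 above it. Eif2s3x held 53.8% and 53.6% with shSetdb1.4, while shSetdb1.6 gave 51.7% and 55.5%, which overlapped the 53.7% and 47.7% of Nons. The fitted differences were 0.10 (SE 0.25, 95% interval -0.40 to 0.60) in Kdm6a and 0.12 (SE 0.23, 95% interval -0.33 to 0.56) in Eif2s3x. Their sign rested on 1 library, since without replicate 2 of day 5 Nons they were -0.043 and -0.060, and without replicate 1 they were 0.38 and 0.39. The intervals do not exclude a difference as large as that of Ddx3x.

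Across all genes the median difference at day 5 was 0.35, and 10 of 247 genes (4.05%) were called by edgeR. Without the replicate block edgeR called 0 of the 247, and DESeq2 called 1. Of the 4 genes 0 were called by either tool, and 2 had an unadjusted p under 0.05, as did 62 of all 247 genes (25.1%). The differences of Kdm5c and Ddx3x were thus close to that of the median gene, with 55.3% and 70.7% of the other genes below them. On the centred scale the differences were 0.15 in Ddx3x, 0.05 in Kdm5c, -0.24 in Kdm6a and -0.25 in Eif2s3x, so the sign of the last 2 depended on the scale. That of Ddx3x became 0.054 without replicate 1 of day 5 Nons and 0.22 without replicate 2 on the centred scale. None of the 4 was called there by edgeR's quasi-likelihood test (adjusted p from 0.815 to 0.937), none had an unadjusted p under 0.05, DESeq2 called 0, and 1 of 247 genes (0.405%) was called. Without the shSetdb1.4 library of replicate 1, the uncentred differences were 0.56 in Ddx3x and 0.44 in Kdm5c. On the centred scale the same omission gave 0.13 and 0.01. That library had the lowest median log2 ratio of the 4 knockdown libraries at day 5, -0.28.

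**Figure D2:**
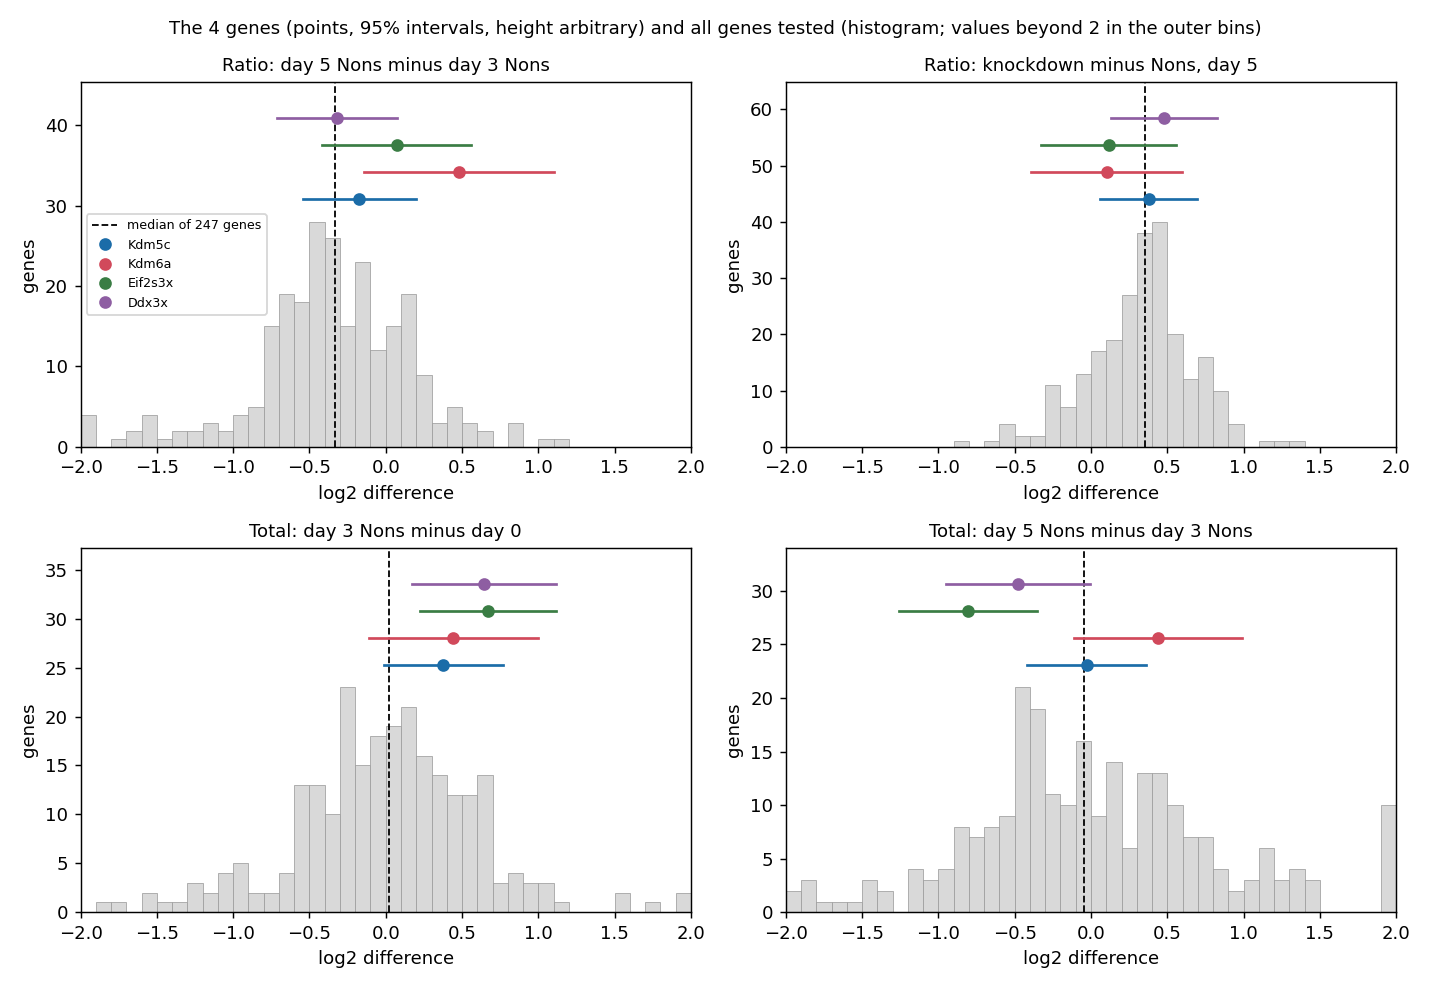
Number of genes (y axis) by log2 difference (x axis, 0.1 per bar, values beyond 2 placed in the outer bars) for 4 comparisons over 247 genes, with the median as a dashed line; the coloured points and lines are the fitted values of the 4 genes with 95% intervals, stacked at arbitrary heights. In the knockdown comparison at day 5 Kdm5c (0.38) and Ddx3x (0.48) sit next to the median of 0.35, and in totals between day 3 and day 5 Eif2s3x (-0.81) is the lowest of the 4.

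At day 3 no difference between hairpins and Nons was called. The fitted differences of the 4 genes lay between -0.14 and 0.15, beside a median of 0.02, with 0 of 247 genes (0.0%) called by edgeR and 0 of the 4 at an unadjusted p under 0.05. The lowest became -0.44 without replicate 2 of day 3 Nons and the highest 0.36 without replicate 1. In Kdm5c the 4 hairpin libraries were 0.06 to 0.29 above Nons of the same replicate. In Kdm6a single hairpin libraries differed from Nons of the same replicate by -1.08 to 0.81, and its 95% interval, -0.52 to 0.62, holds the day 5 value of Ddx3x. The 2 hairpins did not differ detectably from each other at day 5, where the differences between shSetdb1.6 and shSetdb1.4 were between -0.05 and 0.02, with 0 of the 4 at an unadjusted p under 0.05 and 1 of 247 genes (0.405%) called. Without replicate 1 of shSetdb1.4 the lowest became -0.20, and without its replicate 2 the highest became 0.16. For Kdm6a the interval of that difference reached from -0.52 to 0.51. A test of whether the knockdown difference was larger at day 5 than at day 3 gave values from 0.05 in Kdm6a to 0.48 in Ddx3x, with 0 of the 4 called by edgeR's quasi-likelihood test (adjusted p from 0.369 to 0.951), 1 at an unadjusted p under 0.05 and 2 of 247 genes (0.81%) called. Without the replicate block, or with DESeq2, 0 of the 247 were called in this test. DESeq2 called 0 of the 4 in each of these 3 comparisons.

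The single SNPs showed how far the ratio varied within a gene. Summed over 14 libraries, the SNP in coding exon 7 of Kdm5c had a CAST share of 40.5% (95% Wilson interval 37.4% to 43.6%, 954 reads) and was below 50% in 13 libraries. The SNP in its first exon had 59.8% (56.4% to 63.1%, 824 reads) and was above 50% in 11 libraries. Both windows are printed above. This distance between SNPs was larger than that between the mean CAST shares of Kdm5c in any 2 conditions, and it was present in undifferentiated cells, with 40.9% and 55.5%. Whether reads of both alleles aligned equally well at these SNPs was not tested. Of the 23 SNPs 8 had an interval without 50%, 5 in Kdm5c, 2 in Kdm6a and 1 in Ddx3x, and the share over all SNPs was not counted.

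At day 5, 19 of the 23 SNPs had a higher CAST share in the summed knockdown libraries than in Nons, 10 of 12 in Kdm5c, 5 of 7 in Kdm6a, 3 of 3 in Ddx3x and the SNP of Eif2s3x. Of all SNPs with at least 10 reads on each side, 1328 of 1789 (74.2%) did. In coding exon 16 of Ddx3x the shares were 42.5% with Nons and 54.1% with the hairpins at chrX:13291199, and 43.1% and 52.9% at chrX:13291286. These 2 SNPs are within a read length of each other, so some reads were counted at both. At chrX:13281063 in the 5′ UTR, with 1325 reads over the 14 libraries, the shares were 57.5% and 57.6%, and the difference between SNPs was not tested. The study counts a SNP as reactivating when its ratio is higher with both hairpins than with Nons, and its methods ask for this in both replicates. With at least 10 reads, 13 of 23 SNPs of the 4 genes had a higher ratio with both hairpins in replicate 1. In replicate 2 this held for 15 of 20, beside 51.5% and 59.1% of all SNPs in replicates 1 and 2. In both replicates 8 of 20 SNPs did, 5 in Kdm5c, 2 in Ddx3x and 1 in Kdm6a, beside 249 of 763 (32.6%) of all SNPs.

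**Figure D3:**
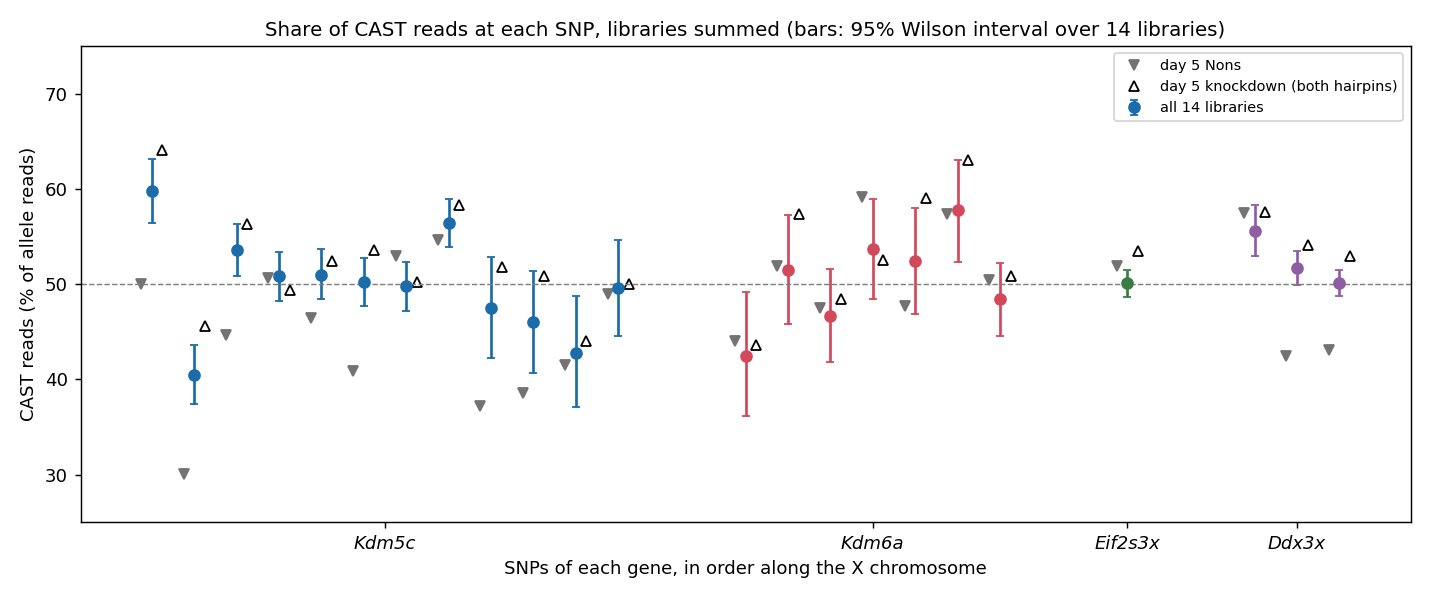
CAST reads as a percentage of allele reads (y axis) at each of the 23 SNPs, grouped by gene and ordered along the X chromosome (x axis); coloured points with 95% Wilson intervals sum all 14 libraries, grey triangles the 2 Nons libraries of day 5 and open triangles the 4 knockdown libraries of day 5. The open triangle lies above the grey one at 19 of 23 SNPs, and the Kdm5c SNPs range from 40.5% to 59.8%.

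The summed output of both alleles, relative to other X-linked genes, differed between time points in 2 of the 4 genes, and in 3 with the replicate number as a block. Without the block, 1 of the 4 was called from day 3 to day 5, beside 27.9% of all genes. From day 0 to day 5 it was 1, beside 23.5%. Totals are given as reads of both alleles per 10000 reads of the tested genes after TMM scaling. They depend on the number of SNPs, so a level can be compared between conditions but not between genes. In this bulk RNA, fewer cells expressing a gene and less RNA per cell cannot be told apart. At an adjusted p under 0.05 (edgeR, quasi-likelihood test) Eif2s3x fell between day 3 and day 5, and Kdm6a was higher at day 5 than at day 0, a comparison in which differentiation and transduction cannot be told apart in the libraries used.

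Eif2s3x had 36.1 and 49.8 reads per 10000 at day 0, 63.9 and 72.8 in Nons at day 3, and 37.5 and 40.9 in Nons at day 5. The day 3 values were above those of both other days, and the day 5 values lay within the range of day 0. For these and the totals below, the share of all genes with such separated values was not counted. From day 3 to day 5 the total fell by 0.81 on the log2 scale (SE 0.21, 0.571-fold, adjusted p 0.013, edgeR). From day 0 to day 3 the difference was 0.67 (SE 0.21, adjusted p 0.0558, edgeR). Both alleles contributed, with means of 19.6 CAST and 23.3 129 reads per 10000 at day 0, 34.5 and 33.9 at day 3, and 19.8 and 19.4 at day 5.

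Ddx3x followed a similar course of levels, with 62.8 and 93.2 reads per 10000 at day 0, 110.3 and 132.9 in Nons at day 3, and 76.5 and 99.1 in Nons at day 5. The differences were 0.64 (SE 0.22, adjusted p 0.0875, edgeR) from day 0 to day 3 and -0.48 (SE 0.22, adjusted p 0.123, edgeR) from day 3 to day 5. The first was 0.39 without replicate 1 of day 0 and 0.95 without replicate 2, and the second -0.30 without replicate 1 of day 5 Nons. With the replicate number as a block, the call of Ddx3x was gained in both steps (adjusted p 0.0175 and 0.046, edgeR), as was that of Eif2s3x from day 0 to day 3 (adjusted p 0.0191, edgeR). The 129 reads of Ddx3x averaged 47.4 per 10000 in the day 5 Nons libraries and the CAST reads 40.3, after 59.6 and 62.0 at day 3.

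Kdm6a had 14.1 and 18.3 reads per 10000 at day 0, 18.0 and 25.9 at day 3, and 34.4 and 24.8 at day 5 in Nons. Its values overlapped between neighbouring time points but not between day 0 and day 5. The difference between day 0 and day 5 was 0.88 (SE 0.26, 1.84-fold, adjusted p 0.0217, edgeR). The mean of its CAST reads was 8.36 per 10000 at day 0 and 15.0 at day 5, and that of its 129 reads 7.88 and 14.7. Kdm5c had 92.7 and 114.4 reads per 10000 at day 0, 122.0 and 146.8 at day 3, and 123.7 and 140.3 at day 5. Both later time points lay above day 0, but the differences of 0.38 (SE 0.18, adjusted p 0.221) and 0.35 (SE 0.18, adjusted p 0.168) from day 0 did not pass edgeR's test. Leaving out single libraries gave 0.23 to 0.54 for the first and 0.20 to 0.51 for the second, the lowest of each without replicate 1 of day 0 and the highest without replicate 2.

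These calls were made beside many others. Of all genes 24 of 247 (9.72%) were called from day 0 to day 3, 69 (27.9%) from day 3 to day 5 and 58 (23.5%) from day 0 to day 5, with medians of 0.02, -0.05 and -0.06. With the replicate block 38, 89 and 85 of 247 genes were called in the same order, and 2, 2 and 1 of the 4. Fitted to the compared libraries alone, the calls of Eif2s3x (-0.76, SE 0.26, adjusted p 0.0586) and Kdm6a (0.92, SE 0.35, adjusted p 0.148) were lost by edgeR's test, with differences of similar size and larger standard errors. That of Kdm6a was also lost without replicate 1 of day 0 (0.71, adjusted p 0.119, edgeR) or of day 5 Nons (0.61, adjusted p 0.156, edgeR). That of Eif2s3x was lost without replicate 2 of day 3 Nons (-0.71, adjusted p 0.0957, edgeR) or replicate 1 of day 5 Nons (-0.74, adjusted p 0.0659, edgeR).

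**Figure D4:**
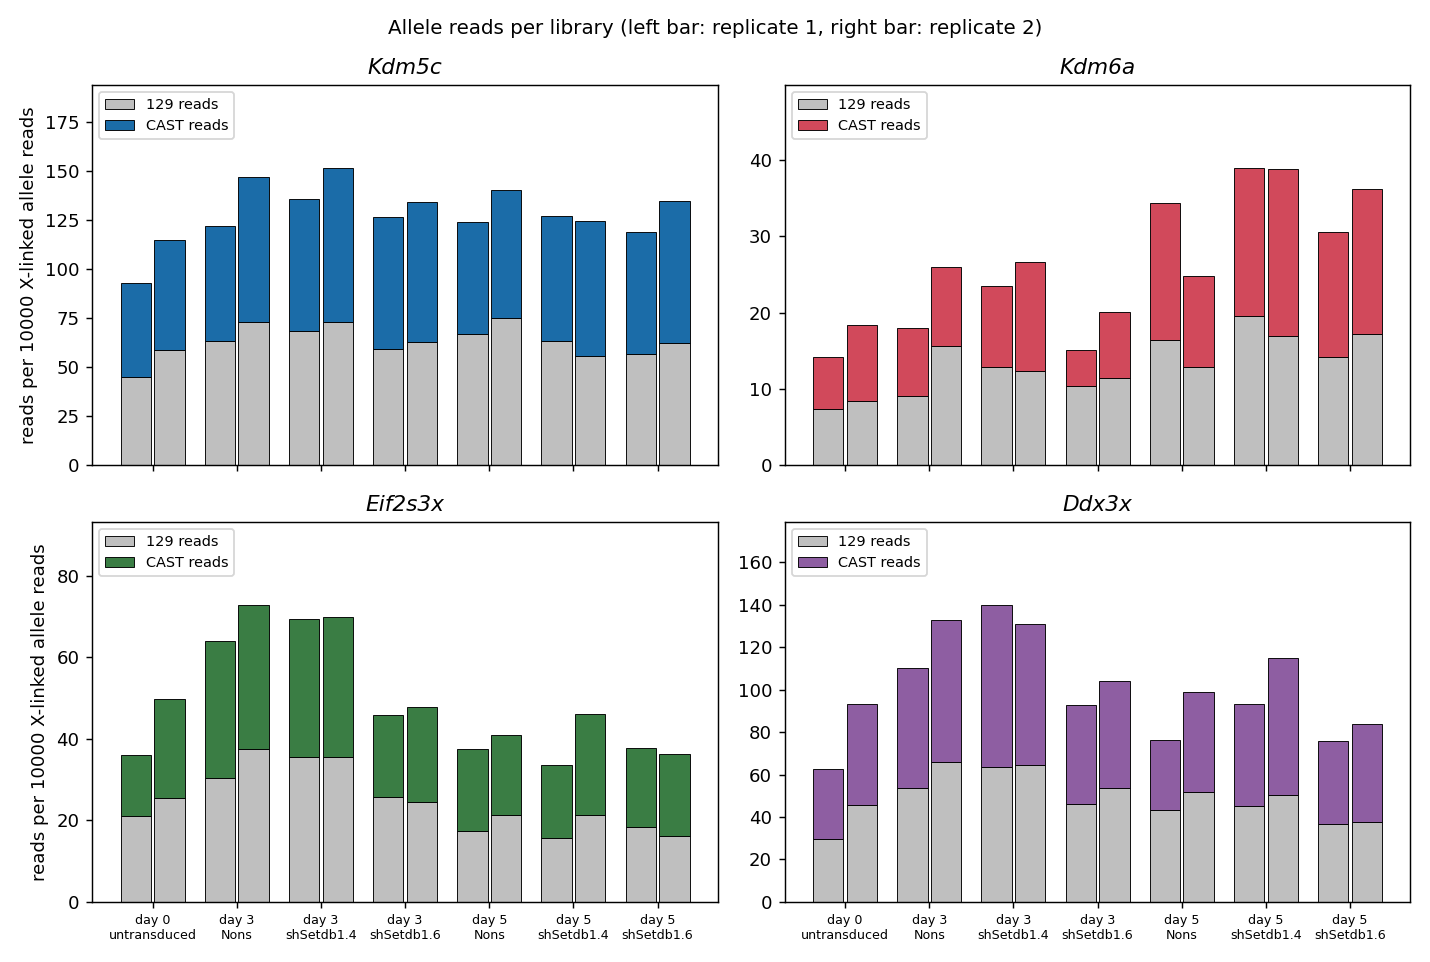
Reads per 10000 reads of the tested genes (y axis, from 0, a scale of its own for each gene) in the 14 libraries (left bar replicate 1, right bar replicate 2 of each condition), split into 129 reads (grey) and CAST reads (coloured). Eif2s3x is highest in the Nons and shSetdb1.4 libraries of day 3, between 63.9 and 72.8, with both alleles taking part.

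The hairpins did not change the totals of the 4 genes at the threshold. At day 3 the differences between knockdown and Nons were between -0.26 in Eif2s3x and 0.02 in Kdm5c. As single libraries were left out, the lowest ranged from -0.35 to -0.16 and the highest from -0.10 to 0.22. At day 5 they lay between -0.06 in Kdm5c and 0.27 in Kdm6a, and the highest of the 4 became 0.53 without replicate 1 of day 5 Nons. In both comparisons edgeR's quasi-likelihood test and DESeq2 each called 0 of the 4 and 0 of 247 genes (0.0%), and 0 of the 4 had an unadjusted p under 0.05. The mean over both hairpins hid a contrast at day 3. Eif2s3x had 69.4 and 69.9 reads per 10000 with shSetdb1.4 but 45.9 and 47.9 with shSetdb1.6, and Ddx3x had 140.0 and 131.0 but 92.8 and 103.9. The shSetdb1.6 libraries were below those of Nons and of shSetdb1.4 in both genes, and they were also the shallowest of the 3 at day 3 in each replicate, with 39592 and 58557 reads. This contrast was seen in the values and was not tested, nor was the part of depth in it. The share of all genes with such a contrast was not counted.

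The nearest tested genes along the chromosome were compared to see whether neighbours behaved alike. Kantr, 20.3 kb beyond Kdm5c, had a day 5 knockdown difference of 0.81 (SE 0.38, adjusted p 0.166, edgeR), and Smc1a, 170 kb away on its other side, -0.08 (SE 0.21). Zfx, 65.0 kb from Eif2s3x, was called, at 0.99 (SE 0.31, adjusted p 0.0462, edgeR), and Maged1, 323 kb away on the other side, had 0.21 (SE 0.19). The call of Zfx was lost without the replicate block (adjusted p 0.0895, edgeR) and with DESeq2 (adjusted p 0.128). Usp9x and Cask, 108 and 223 kb away on either side of Ddx3x, had 0.36 (SE 0.16) and 0.32 (SE 0.31). Fundc1 and Rp2, 590 and 2080 kb away on either side of Kdm6a, had 0.64 (SE 0.34) and 0.17 (SE 0.36). The call of Zfx beside the 0.12 of Eif2s3x was not tested as a difference between the genes.

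Over the 14 libraries, the log2 ratio of Ddx3x was most like those of G6pdx (Pearson r 0.86) and Ftsj1 (0.85) among 167 other genes with a mean of at least 100 reads. That of Kdm5c was most like Nxt2 (0.74) and Pola1 (0.73). The closest to Eif2s3x were Tmem47 (0.69), Klhl13 (0.68) and Usp9x (0.65), and the closest to Kdm6a were Eif2s3x (0.57), Alg13 (0.53) and Zfx (0.53). Among the 4 genes themselves, Kdm5c and Ddx3x had an r of 0.64, Kdm6a and Eif2s3x 0.57, and the remaining pairs between -0.09 and 0.19. These correlations describe 14 libraries that share conditions, depth and the shift of the library median.

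Other genes described as escaping X inactivation were set beside the 4. Of 11 listed, 5 had SNPs and 3 could be tested, namely Pbdc1, 1810030O07Rik and Firre. Pbdc1 was near equal expression in undifferentiated cells, with 40.3% and 55.6% CAST reads and a log2 ratio of -0.12 (SE 0.17). The other 2 were already far from it before differentiation. Firre, a long noncoding RNA gene, had 18.3% and 16.8% (log2 ratio -2.21, SE 0.16) and 1810030O07Rik 16.0% and 13.1% (log2 ratio -2.55, SE 0.31), with adjusted p of 1.27e-40 and 2.39e-14 by edgeR's quasi-likelihood test. Without the replicate block the adjusted p were 1.41e-14 and 4.31e-09 (edgeR), again from 2 libraries at day 0. At day 5 the knockdown differences of the 3 genes were 0.48, 0.05 and 0.34 for Pbdc1, Firre and 1810030O07Rik, with 0 of 3 called by edgeR (4.05% of all genes), 1 at an unadjusted p under 0.05 and a median of 0.34. The total of Firre rose by 2.15 (SE 0.51, adjusted p 0.00785, edgeR) from day 3 to day 5, and that of Pbdc1 fell by 0.58 (SE 0.20, adjusted p 0.0402, edgeR), 2 of 3 beside 27.9% of all genes. The call of Pbdc1 was lost with DESeq2 (adjusted p 0.0713).

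X-linked genes of related function gave the wider context. Of 25 listed chromatin genes 17 were tested. In the day 5 knockdown comparison 16 of the 17 had a positive difference (median 0.36, all genes 0.35), as did 206 of all 247 genes (83.4%), and Zfx alone was called (1 of 17, beside 4.05% of all genes). From day 3 to day 5 in Nons 16 of the 17 were negative (median -0.33), as were 186 of all 247 (75.3%), and Bcorl1, a corepressor gene (-1.90, SE 0.49, adjusted p 0.0037, edgeR), and Hdac6, a deacetylase gene (-0.54, SE 0.19, adjusted p 0.0465, edgeR), were called, 2 of 17 beside 10.1% of all genes. The call of Hdac6 was lost without the replicate block (adjusted p 0.111, edgeR) and with DESeq2 (adjusted p 0.0567). From day 0 to day 5 the ratio of Bcorl1 fell by 1.98 and, of the whole list, it alone was called, 1 of 17 beside 11.3%. On the centred scale Bcorl1 fell by 1.72, while Med14, a Mediator subunit gene, rose by 0.93 and Hcfc1 by 0.36, 3 of 17 beside 8.91%. DESeq2 called none of these 3 (adjusted p from 0.0528 to 0.179), and without the block Hcfc1 was lost (adjusted p 0.0622, edgeR). Jade3 alone was called at day 0, with a log2 ratio of -0.50, beside 22.3% of all genes, and was lost without the block (adjusted p 0.0597, edgeR) and with DESeq2 (adjusted p 0.0992).

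Totals of the chromatin genes moved in both directions, with 2 of 17 called from day 0 to day 5, 1 from day 0 to day 3 and 3 from day 3 to day 5, beside 23.5%, 9.72% and 27.9% of all genes. From day 0 to day 5 Med14 rose by 1.76 (SE 0.24, adjusted p 0.000121, edgeR) and Bcorl1 by 1.19 (SE 0.36, adjusted p 0.0275, edgeR). From day 0 to day 3 Med14 rose by 0.98, and from day 3 to day 5 Med14 rose by 0.78, Ogt, which encodes an O-GlcNAc transferase, rose by 0.72 and Hdac6 fell by 0.72. Of 24 listed translation and RNA genes 11 were tested, and 10 of the 11 had a positive knockdown difference at day 5 (median 0.45), beside the 83.4% of all genes. Nxt2 was called (0.74, SE 0.22, adjusted p 0.039, edgeR), 1 of 11 beside 4.05%. That call too was lost without the replicate block (adjusted p 0.0895, edgeR) and with DESeq2 (adjusted p 0.117). At day 0 Dkc1 (0.62) was called towards CAST, and Eif1ax (-0.54) and Gemin8 (-1.44) towards 129, 3 of 11 beside 22.3%. In Nons the ratio of Rbmx2 fell by 0.91 (SE 0.27, adjusted p 0.00903, edgeR) from day 0 to day 5, and on the centred scale Dkc1 rose by 0.48, a call lost without the block (adjusted p 0.0622, edgeR) and with DESeq2 (adjusted p 0.179). In totals over the same days Eif1ax, a translation initiation factor gene, rose by 0.86 (SE 0.25, adjusted p 0.0212, edgeR) and Fmr1 fell by 0.73 (SE 0.23, adjusted p 0.0292, edgeR).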

How the data were processed

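RNA from 14 ES cell libraries was sequenced as 100 bp single-end reads. Per the study, the authors aligned them with Subread (build mm10) and counted, by samtools pileup, the reads with the 129 or CAST base at each X-linked SNP of the Mouse Genomes Project. The deposited values are these raw counts, without normalization. Submitters' processing notes name CASAVA 1.8.2. The table has 4 further per-sample columns, whose names begin with Day3_Un and match no sample used here, and they were not analysed here. SNPs were assigned to genes by GENCODE exons of mm10. SNPs in exons of 2 genes (31) or of none (35) were left out, and counts were summed per gene. A read over several SNPs counts at each. Whether the counting used strand is not given in the sources used here.

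Ratios were tested with edgeR 4.0.16 (R 4.3.3) by the quasi-likelihood test on 28 allele columns, with a term per library, an allele effect per condition and the replicate number as a block, since the study compares hairpins with Nons within each replicate experiment. Totals used TMM and no block. Adjustment was over the 247 genes that reached 10 reads in each library, at 0.05. Shares and log2 ratios per library (1 added to each count) were computed in Python 3.11.15. DESeq2 1.42.0, the block, other filters, spaced SNPs, centring and leaving out libraries were alternatives. The models were tested on simulated data. Labels do not say whether replicates came from separate cultures, and the study's text calls them independent experiments, so p-values may measure in part technical spread. The transduction is placed on day 2 by the labels and on other days in the study's text. Members and lists were chosen with earlier results of these data known. Named genes are the 4, their nearest tested neighbours, the 3 most correlated genes of each (1 of these genes is not reported here), the tested escape genes, and list genes past the threshold.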

Additional observations from a re-analysis of the deposited data

Results flagged for a closer look

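In the 4 knockdown libraries of day 3, 1 log2 CAST/129 ratio of Eif2s3x stood apart from the others, at -0.34 in replicate 1 of shSetdb1.6, where 44.1% of the reads were CAST. Its gap to the nearest of the other libraries exceeded the 95% critical value of the Dixon test. This library held 39592 reads, and the part of its depth was not tested. In total 16 groups of 4 libraries were examined in this way, and chance alone marks about 1 in 20 of such groups.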

How the results depend on the processing

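Of the 4 genes, the number called changed with the following settings. For totals from day 0 to day 3 (0 called), the replicate block gave 2, DESeq2 1, and leaving out libraries 0 to 2. For totals from day 3 to day 5 (1), the block gave 2, the compared libraries alone 0, and leaving out libraries 0 to 1. For totals from day 0 to day 5 (1), the compared libraries alone gave 0, and leaving out libraries 0 to 1. For the day 5 knockdown ratio (0), leaving out libraries gave 0 to 2. For the centred ratio from day 0 to day 5 (0), spaced SNPs gave 1 and leaving out libraries 0 to 1. The cause was not tested. Over all 247 genes, the other choice of block or DESeq2 moved the calls by over 1.5 times in the day 5 knockdown ratio (10, without the block 0, DESeq2 1), its change from day 3 to day 5 (2, then 0 and 0), the hairpins against each other (1, without the block 0), the centred ratio from day 0 to day 5 (22, DESeq2 12) and totals from day 0 to day 3 (24, with the block 38). The replicate block in ratios changed no call of the 4 genes, and same-numbered libraries shared deviations with mean correlations over genes of 0.0514 in ratios and 0.207 in totals.

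Changes of sign were all in differences that were not called. Centring on the library median gave 0.094 for Kdm5c at day 0, 0.056 for Kdm5c from day 0 to day 5, 0.17 (Kdm5c) and 0.019 (Ddx3x) from day 3 to day 5, and -0.24 (Kdm6a) and -0.25 (Eif2s3x) for the day 5 knockdown. Centred, the change of the knockdown difference from day 3 to day 5 ran from -0.33 to 0.13 in the 4 genes. Spaced SNPs gave 0.014 for Kdm5c at day 0. For Kdm6a from day 0 to day 5 the ratio was -0.027 without the replicate block, -0.0058 with DESeq2 and -0.0195 in the compared libraries alone. The total of Kdm5c from day 3 to day 5 was 0.013 with DESeq2, 0.014 with at least 1 read, 0.026 with at least 30 reads and 0.023 in the compared libraries alone.

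Leaving out 1 library of the compared conditions at a time gave the following ranges where a sign turned. At day 0 they were -0.14 to 0.14 (Kdm5c) and -0.049 to 0.18 (Kdm6a). From day 0 to day 5 Kdm6a ranged from -0.27 to 0.15, and from day 3 to day 5 Eif2s3x from -0.20 to 0.25. The lowest knockdown difference of the 4 genes at day 3 ranged from -0.44 to 0.013, and the lowest change of that difference from day 3 to day 5 (0.05) from -0.28 to 0.26. The day 5 knockdown difference ranged from -0.043 to 0.38 in Kdm6a and -0.060 to 0.39 in Eif2s3x. Centred, it ranged from -0.39 to 0.087 (Kdm6a), -0.45 to 0.10 (Eif2s3x) and -0.0103 to 0.13 (Kdm5c), and the centred change from day 0 to day 5 from -0.059 to 0.17 (Kdm5c) and -0.058 to 0.43 (Kdm6a). Totals ranged from -0.092 to 0.48 (Ddx3x) and -0.35 to 0.11 (Eif2s3x) from day 0 to day 5, and from -0.16 to 0.11 (Kdm5c) from day 3 to day 5. The highest total difference between knockdown and Nons ranged from -0.10 to 0.22 at day 3, and the lowest from -0.19 to 0.028 at day 5. With 2 replicates a condition, a lone remaining library was assumed to vary like the other conditions. Kdm6a had 58 reads in its shallowest library.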
